A study of Homo sapiens with 11 samples.

Results

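The response of 2 prostate cancer cell lines to the same sialyltransferase was compared gene by gene. For each gene, the log2 fold change with ST6GAL1 overexpression in DU145 cells minus that in PC3 cells was taken, here called the difference between the lines. All 11 libraries of the series entered it, and 14952 of 28395 genes had enough counts to be tested. Both are established lines from human prostate tumours, PC3 from a bone metastasis and DU145 from a brain metastasis. ST6GAL1 was introduced by stable lentiviral transduction, and the controls received negative control particles, so that they carried a lentivirus too. There were 3 PC3 control libraries (Lenti-ORF control), 3 PC3 libraries with ST6GAL1 overexpression, 3 DU145 control libraries and 2 DU145 libraries with ST6GAL1 overexpression, numbered replicates 2 and 3. Each group is 1 transduced population per line with no further treatment, and the promoter driving ST6GAL1 is not given in the sources used here. What ST6GAL1 does and what else sets these populations apart therefore cannot be told apart, and p-values measure the spread between repeats of a population.

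ST6GAL1 is a Golgi enzyme that adds sialic acid in α2-6 linkage to galactose at the ends of N-glycans. Among the glycoproteins that carry this cap are growth factor receptors, integrins, death receptors and gp130, the receptor subunit shared by the interleukin 6 cytokines, and its presence is known to alter their clustering, turnover and ligand binding. Which transcripts change in a cell with more of the enzyme depends on which of these receptors and which transcription factors that cell uses.

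Counts on genes ranged from 13194485 to 18201359 per library, and a floor of 3 counts corresponded to between 0.165 and 0.227 CPM, the count scaled to library size. Levels below are CPM after TMM normalisation over the 11 libraries. The PC3 libraries repeated each other closely, with a biological coefficient of variation of 0.0226 against 0.0817 in DU145. The 2 DU145 overexpression libraries stood apart from each other. They differed by more than 0.58 on the log2 scale for 700 of 9942 genes, against 33 to 134 for other pairs of repeats, and the gap followed the GC content of the transcripts (Spearman correlation across genes of -0.743, a description, since genes are not independent replicates). The difference between the lines also ran with GC content (Spearman correlation of -0.393, and 0.058 after a trend on GC content and length was removed from each library). Counts of list members are therefore also given, for most lists, without replicate 3 and with this trend removed. The chemokine, complement and HOX counts are given under the main setting only. Differences in the interferon and MHC class I lists are also given with the trend removed, and those of complex I without replicate 3. Of the markers of other cell types, the summed level of 10 prostate luminal genes was 569 to 614 CPM in PC3 controls, 876 to 901 in PC3 overexpression libraries and 23.2 to 28.9 in DU145. Those of 9 leukocyte genes (0.443 to 2.96 CPM, 6 of 9 at or under 3 counts in every library) and 8 neuroendocrine genes (1.06 to 3.16, 6 of 8) were near 0, those of 6 endothelial genes 0.571 to 15.1 and those of 9 fibroblast genes 3.87 to 36.6, while 7 basal genes summed to 357 to 422 in PC3 and 774 to 1130 in DU145. Their part in the results was not tested.

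ST6GAL1 itself (GRCh38, chromosome 3 from 186930526 to 187078553) was higher with overexpression in both lines. Its level was 2.97, 2.09 and 3.06 CPM in the PC3 control libraries and 33.3, 31.7 and 32.6 in the PC3 overexpression libraries. The DU145 values were 14.3, 13.1 and 11.4 CPM in controls and 346.6 and 298.7 with overexpression. No groups overlapped. DU145 thus started from a higher level, ended at a higher one and had the larger log2 fold change, 4.64 against 3.58 in PC3. The difference was 1.06 (standard error 0.179, adjusted p = 0.000286, edgeR's quasi-likelihood test), so the lines were compared at unequal levels of ST6GAL1 mRNA. The counts do not measure the amount or activity of the enzyme.

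Most genes called in either line were not shown to respond alike. The difference was called (Benjamini-Hochberg adjusted p under 0.05) for 2949 genes, 19.7% of those tested, with the effect higher in DU145 for 1549 (10.4%) and lower for 1400 (9.36%). Of the 2949 genes, 659 differed by more than 1 on the log2 scale. The test pooled the spread of both lines, and combining separate fits of each line gave 2567 called genes. Within a line a call also needed a change of more than 0.58 on the log2 scale in either direction. This held for 728 genes in PC3 (5.38%, with 489 or 3.61% up and 239 or 1.76% down) and for 1222 in DU145 (8.94%, with 592 or 4.33% up and 630 or 4.61% down). Of 12413 genes tested in both lines, 76 were called in the same direction (0.612%) and 56 in opposite directions (0.451%). All 56 also had a called difference. A call in 1 line alone did not by itself show that the lines differed: of 1090 genes called in DU145 only, 678 (62.2%) had a called difference, and of 596 called in PC3 only, 220 (36.9%) did. At the other end, the 95% interval of the difference lay within ±0.58 for 7430 genes (49.7% of those tested), but for 51 of the 1818 genes called in either line (2.81%). Without DU145 overexpression replicate 3, the difference was called for 5218 genes (34.9%), and without replicate 2 for 2872 (19.2%). With the GC and length trend removed it was called for 3842 of 14510 (26.5%), of which 2528 were among the 2949. List counts under these settings are to be read against these shares.

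**Figure D1:**
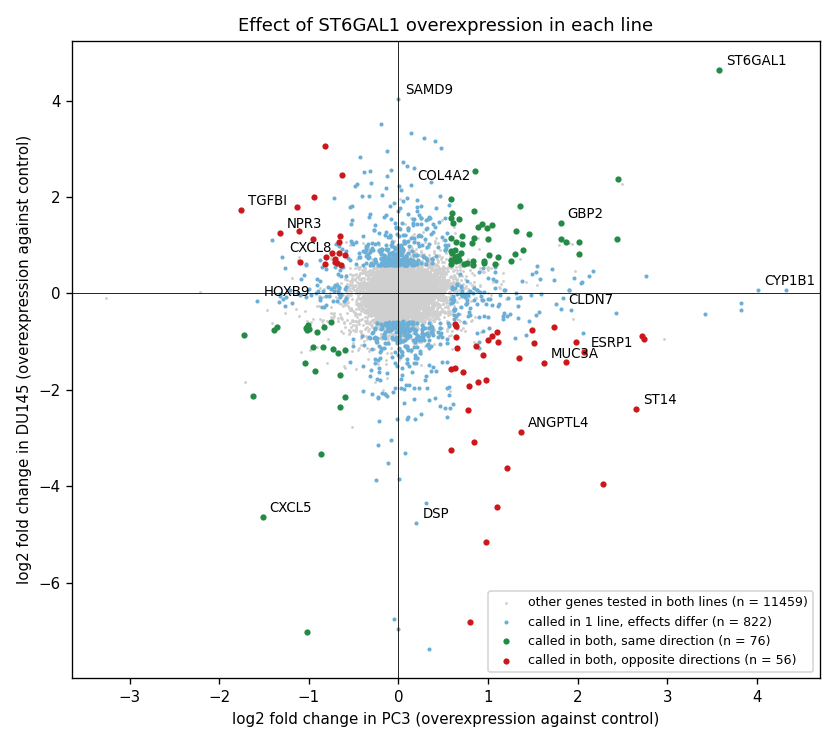
The log2 fold change with ST6GAL1 overexpression in PC3 (x axis) against that in DU145 (y axis) for 12413 genes, each a point. The 76 genes called the same way (green) lie in the upper right and lower left, the 56 called opposite ways (red) in the upper left and lower right, and genes called in 1 line with a called difference (blue) lie along the axes.

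The 56 genes called in opposite directions included a matrix protein, a membrane protease and a splicing regulator, and no gene list held more than 1 of them. Of the 56, 20 rose in DU145 and fell in PC3, and 36 did the reverse. TGFBI, a secreted matrix protein that binds integrins and collagens (chromosome 5 from 136028988 to 136063818), was read at 2.02, 2.34 and 1.96 CPM in PC3 controls and at 0.340, 0.717 and 0.758 with overexpression. In DU145 it was read at 94.2, 98.3 and 91.2 CPM in controls and at 316.6 and 306.1 with overexpression. It therefore fell in PC3, where it was scarce, and rose in DU145, where it was abundant, with no overlap in either line and a difference of 3.48 (standard error 0.232, adjusted p = 2.84e-09). NPR3, the natriuretic peptide clearance receptor, was at similar levels in both controls, slightly higher in PC3, and parted from there. Its level was 5.49, 5.44 and 6.85 CPM in PC3 controls and 1.91, 2.81 and 2.27 with overexpression, and 4.43, 4.57 and 4.41 in DU145 controls and 10.8 and 10.6 with overexpression. SNTB1, a syntrophin of the dystrophin complex (log2 fold change -0.95 in PC3 and 1.12 in DU145), and the long noncoding RNA MIR503HG (-0.95 and 2.01, the latter from 0.127 to 0.264 CPM in DU145 controls, near the floor) followed the same pattern.

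In the reverse orientation, ST14 (matriptase, an epithelial membrane serine protease, chromosome 11 from 130159782 to 130210362) had the difference furthest from 0 of the genes named by rule for opposite calls. Its level was 2.91, 2.53 and 2.35 CPM in PC3 controls and 14.9, 16.6 and 17.9 with overexpression. DU145 read 14.6, 15.2 and 15.6 CPM in controls and 2.38 and 3.29 with overexpression. Overexpression in effect exchanged the levels of the lines, and the difference was -5.05 (standard error 0.195, adjusted p = 1.80e-12). MUC3A, a membrane mucin with a repetitive sequence, rose by a log2 fold change of 1.62 in PC3 and fell by 1.45 in DU145, from control levels of 7.65 to 8.09 and 8.19 to 9.52 CPM. ESRP1, a splicing regulator of epithelial cells, rose from 2.02, 2.21 and 2.15 CPM to 8.98, 8.71 and 9.22 in PC3 and fell from 4.49, 5.96 and 4.86 CPM to 2.77 and 1.68 in DU145. CSGALNACT1, which starts chondroitin sulphate chains, also rose in PC3 (1.51) and fell in DU145 (by 1.03), as did the AP-1 subunit FOS (1.35 and -1.35), whose DU145 controls spread from 7.70 to 14.4 CPM. FOS was scarce in PC3, at 0.253 to 0.978 CPM in controls and 1.14 to 2.04 with overexpression. Chosen after their values were seen, the keratin KRT15 (1.00 in PC3 and -0.97 in DU145) and ANGPTL4, an inhibitor of lipoprotein lipase and a hypoxia and PPAR target (1.37 and -2.88), belonged here too. Among genes with a role in signalling, BMP4 (0.72 and -1.64), the Wnt receptor E3 ligase RNF43 (0.98 and -1.79), the integrin subunit ITGB3 (-0.71 and 0.66), TNFAIP3, which encodes the NF-κB inhibitor A20 (-0.81 and 0.77), and TGFB2 (-0.60 and 0.79) were called in opposite directions. BMP4 had few counts, 16, 12 and 14 in DU145 controls and 4 and 6 with overexpression, as did RNF43 in PC3 (12, 14 and 23, and 31, 28 and 37).

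**Figure D2:**
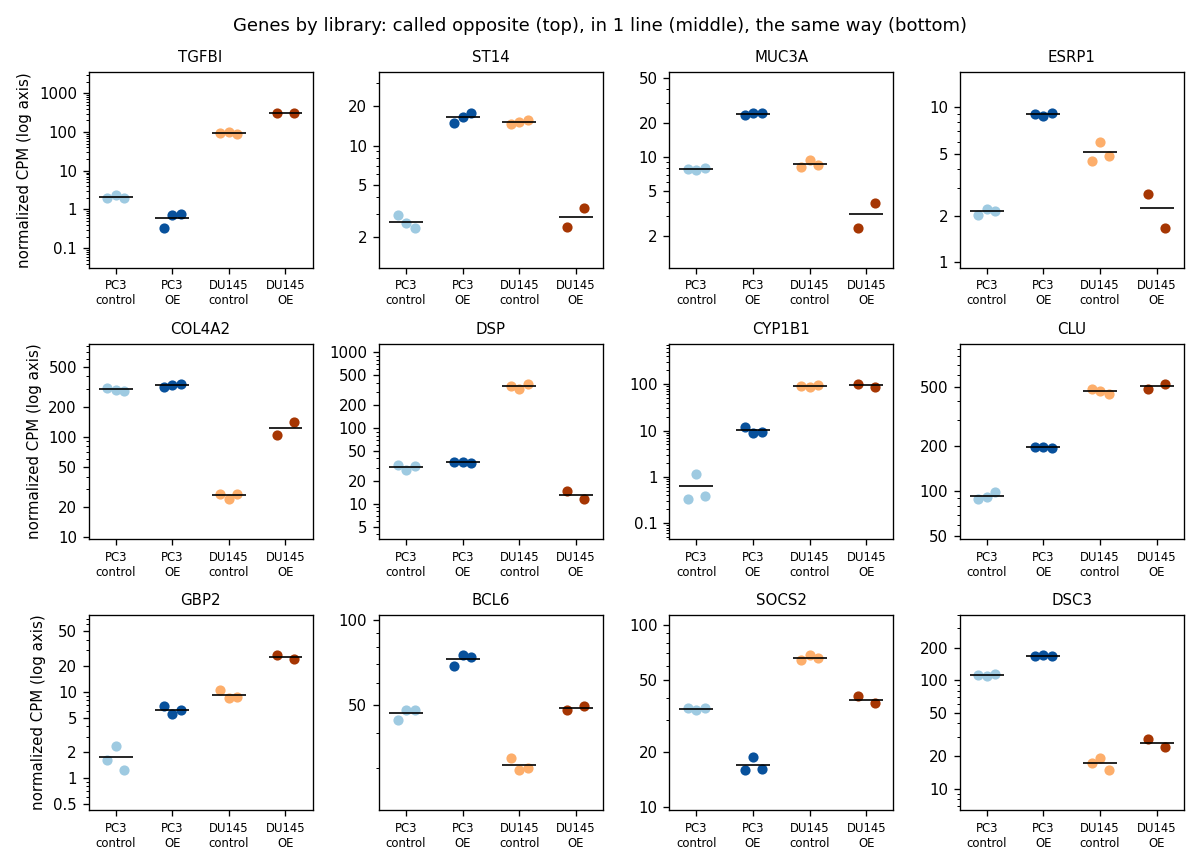
Normalised CPM (log axis) in each library for 12 genes, with the group mean as a line and OE for ST6GAL1 overexpression. In the top row the 2 lines moved apart, in the middle row 1 line moved by more than 0.58 on the log2 scale, and in the bottom row both lines moved the same way.

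Genes of amino acid supply mostly had a higher effect in DU145 than in PC3, by small amounts. ATF4 is the transcription factor that amino acid shortage and other stresses induce, and its targets import and make amino acids. Of 26 listed genes, 18 had an effect higher in DU145 than in PC3 and 1, PYCR1 of proline synthesis, lower, 73.1% together against 19.7% of all genes tested. The median log2 fold change of the list was -0.17 in PC3 and 0.25 in DU145, with a median difference of 0.47, against -0.01 over the 12413 genes tested in both lines. By sign, 14 of the 26 were higher in DU145 and lower in PC3, 6 were lower in both and 4 higher in both, and none of the 26 was called in opposite directions. In PC3, 12 members were lower and 2 higher at an adjusted p under 0.05 with no threshold on the fold, and in DU145, 15 were higher and none of the 26 lower. The changes were small, since 1 member passed the fold threshold in PC3 (down) and 4 in DU145 (up). The count of 18 was the same without either DU145 overexpression library and with the GC and length trend removed, where the median difference was 0.55.

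SLC7A11, the cystine importer (chromosome 4 from 138164097 to 138242349), was read at 169, 151 and 163 CPM in PC3 controls and at 126, 131 and 132 with overexpression. In DU145 it was read at 136, 132 and 143 CPM in controls and at 257 and 237 with overexpression. The controls of both lines were thus at similar levels, and overexpression moved the lines to opposite sides of it (difference 1.17, standard error 0.0781, adjusted p = 2.96e-09). ASNS, asparagine synthetase, was read at 69.7, 66.2 and 69.0 CPM in PC3 controls and 48.0, 52.3 and 53.4 with overexpression, and at 205, 216 and 214 in DU145 controls and 304 and 265 with overexpression. The groups did not overlap in either line, although neither change reached 0.58 (-0.41 and 0.43). ATF4 mRNA itself moved less (-0.17 in PC3 and 0.22 in DU145), as did PSAT1 of serine synthesis (-0.18 and 0.46), both named after their values were seen, and TRIB3, a pseudokinase induced by ATF4 (-0.34 and 0.38). NUPR1, a stress-induced chromatin protein also named afterwards, was higher in both (0.35 and 1.56).

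The promoter of ASNS carries the element through which ATF4 is known to act, and is shown for that reason. The 250 bases before its start (GRCh38.p14, RefSeq, minus strand, chr7:97872409-97872658) are printed 5′ to 3′ with matches to TGATGNAA, searched on both strands, in capitals.
ASNS: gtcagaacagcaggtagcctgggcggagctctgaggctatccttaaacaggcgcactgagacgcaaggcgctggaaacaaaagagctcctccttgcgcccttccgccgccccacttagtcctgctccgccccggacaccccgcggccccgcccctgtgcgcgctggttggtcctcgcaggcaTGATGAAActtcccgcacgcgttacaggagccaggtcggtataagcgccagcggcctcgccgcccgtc
The match begins 68 bases before the start. In windows from 250 bases before to 50 after the start, 4 of the 20 list members with a RefSeq promoter held this element (20%), namely ASNS, ATF3, SLC3A2 and SLC7A1, against 192 of 11676 tested genes (1.64%). All 4 were among the 14 of these with a called difference. A match to letters is a description and no evidence of binding.

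COL4A1, COL4A2, tenascin C and thrombospondin were called up in DU145 and not in PC3. Of 52 matrix genes tested for the difference, 17 had an effect higher in DU145 and 8 lower, against 10.4% and 9.36% of all genes. Within the lines, 4 rose and 4 fell of 48 tested in PC3, where 5.38% of all genes were called. In DU145, 11 rose and 3 fell of 42 tested, where 8.94% were called. The 3 that fell there were FBLN1 (0.02 in PC3 and -1.32 in DU145), COL5A2 (0.28 and -0.70) and COL5A1, scarce in DU145 controls at 1.01 CPM. FN1 was called up in PC3 (0.94) with a lower effect in DU145 (0.54). These genes were named after their values were seen. COL4A1 and COL4A2, the neighbouring genes of the basement membrane collagen IV on chromosome 13, had high levels in PC3 with little movement, and low levels in DU145 that rose. COL4A2 was read at 309, 293 and 289 CPM in PC3 controls, 318, 326 and 338 with overexpression, 27.0, 24.0 and 26.9 in DU145 controls and 105 and 141 with overexpression. COL4A1 went from 13.9 to 15.9 CPM in DU145 controls to 54.0 and 56.3, a difference of 1.86 (standard error 0.0871, adjusted p = 3.58e-11). Tenascin C (TNC), a matrix glycoprotein of wounds and tumours, moved both ways, by -0.55 in PC3, under the fold threshold, and 1.79 in DU145. THBS1, thrombospondin, named after its values were seen, showed -0.27 and 1.32. Of the receptors, ITGB8, which activates latent TGF-β, was read at 29.8 to 34.0 CPM in PC3 controls and 39.9 to 43.4 with overexpression, and rose in DU145 from 0.374 to 0.529 CPM to 4.00 and 3.74. AMIGO2, an adhesion protein of the leucine-rich repeat family, was at 39.8 to 44.6 CPM in all 6 PC3 libraries and rose in DU145 from 11.8 to 15.4 CPM to 46.1 and 42.6. The protease ADAM12 (-0.32 and 1.66) and the protease inhibitor SERPINE2 (0.58 and 1.56, called in both) also rose more in DU145. Without DU145 overexpression replicate 3, 16 matrix members had a lower effect in DU145, and with the trend removed 12 did, beside 17 higher each time.

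In 3 signalling lists more members had a higher effect in DU145 than a lower one, where 10.4% of all genes had a higher and 9.36% a lower effect. Of the 19 gp130 and JAK STAT3 genes 8 had a higher effect in DU145 and 1 lower (10 and 3 without replicate 3, and also with the trend removed), of 20 TGF-β pathway genes 7 and 1 (with a median difference of -0.05 over the 16 tested in both lines, 6 and 4 without replicate 3, and 7 and 3 with the trend removed), and of 21 YAP and TEAD targets 8 and 1 (8 and 1 without replicate 3, and 13 and 1 with the trend removed). STAT3, the factor that gp130 activates, had 0 counts in all 6 PC3 libraries and 316 to 377 CPM in DU145, so that the gp130 list compares a line in which STAT3 was not read with one in which it was. STAT3 was named after its values were seen. CD44, the hyaluronan receptor, went in PC3 from 303 to 308 CPM to 263 to 270.3 (log2 fold change -0.20) and rose in DU145 from 133 to 139 CPM to 259 and 238.4 (0.86). IL6ST, which encodes gp130, showed -0.21 and 0.35. SKIL, a feedback inhibitor of TGF-β signalling, rose in DU145 (0.91) against -0.11 in PC3, and the mechanosensitive gene ANKRD1 fell in PC3 (by 1.03) against 0.61 in DU145. Of 27 NRF2 genes, which defend against oxidants, 10 had a higher effect in DU145 and 2 lower (13 and 6 without replicate 3, and 12 and 4 with the trend removed). AKR1C3, an aldo-keto reductase that makes androgens and has near-identical paralogues, was read at 4.17 to 5.19 CPM in PC3 controls, 2.93 to 3.92 with overexpression, 9.20 to 11.2 in DU145 controls and 47.1 and 48.1 with overexpression. PGD of the pentose phosphate pathway rose in DU145 (0.69 against -0.11). The stress and checkpoint genes CDKN1A (p21, -0.34 and 0.81) and GADD45A (-0.36 and 0.78), and HIF1A (0.08 and 0.78) and EPAS1 (0.17 and 1.07), the hypoxia-inducible factors, rose in DU145 with smaller effects in PC3. Over the 38 hypoxia and glycolysis genes, however, 9 had a higher and 9 a lower effect in DU145 (10 and 11 without replicate 3, and 10 and 13 with the trend removed).

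ERK targets and cholesterol synthesis genes more often had a lower effect in DU145 than a higher one. Of 28 ERK feedback and target genes, 8 had a lower effect and 3 a higher one, against 9.36% and 10.4% of all genes (12 and 3 without replicate 3, and 9 and 5 with the trend removed). The ETS factors ETV4 and ETV5, readouts of ERK signalling, were at 238.2 to 250.3 and 127 to 135 CPM in all PC3 libraries and fell in DU145, ETV4 from 11.9, 12.2 and 13.4 CPM to 4.77 and 6.31. AREG, amphiregulin, an EGF receptor ligand, fell in DU145 from 116 to 137 CPM to 54.4 and 58.4 while PC3 moved from 92.2 to 92.9 up to 97.4 to 102. The receptor NOTCH3 fell in DU145 from 27.8 to 33.3 CPM to 10.1 and 14.3. Of 29 cholesterol synthesis genes, 8 had a lower effect in DU145 and none of the 29 a higher one, with a median difference of -0.21. Without replicate 3 the counts were 14 lower and 1 higher, and with the trend removed 8 and 1, with a median of -0.05. TM7SF2, a sterol reductase, rose in PC3 (0.62) against -0.34 in DU145, where its overexpression libraries read 38.2 and 55.9 CPM.

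Among epithelial junction genes E-cadherin and P-cadherin were called up in PC3 only, and desmoplakin was called down in DU145 only. Of 27 genes of desmosomes and junctions, 9 had a lower effect in DU145 and 4 a higher one, against 9.36% and 10.4% of all genes. At the fold threshold, 6 rose and none of the 27 fell in PC3, where 3.61% and 1.76% of all genes did. In DU145, 3 rose and 1 fell, where 4.33% and 4.61% did. The lower and higher effects were 13 and 7 without replicate 3, and 12 and 4 with the trend removed, where 5 rose in PC3 and 1 in DU145. E-cadherin (CDH1) was read at 8.85, 8.98 and 9.65 CPM in PC3 controls and 24.3, 23.8 and 23.0 with overexpression. In DU145 it was read at 97.3, 101 and 105 CPM in controls and at 122 and 119 with overexpression. PC3 thus moved towards the DU145 level without reaching it, with a difference of -1.12 (standard error 0.0947, adjusted p = 6.71e-08). P-cadherin (CDH3) repeated this, from 5.44 to 6.55 CPM up to 22.0 to 22.9 in PC3 and from 213 to 229 CPM to 212 and 242 in DU145. The tight junction gene CLDN7, named after its values were seen, rose in PC3 from 1.14 to 1.37 CPM to 3.73 to 5.44, and its relative CLDN4, also named afterwards, in DU145 from 8.50 to 9.13 CPM to 21.1 and 30.8. DSP, the desmosome plaque protein desmoplakin, went the other way in DU145, from 357, 334 and 385 CPM to 14.8 and 11.7, against 28.4 to 32.5 and 34.4 to 36.2 in PC3. SVIP, an inhibitor of endoplasmic reticulum degradation (-0.06 in PC3 and -2.04 in DU145), and PTK7, a Wnt pathway pseudokinase (0.10 and -1.44), likewise fell in DU145 only.

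Further genes, of varied function, were called in PC3 and not in DU145, with a called difference. CYP1B1, a cytochrome P450 induced by the aryl hydrocarbon receptor, rose in PC3 from 0.336, 1.14 and 0.391 CPM to 11.8, 8.94 and 9.41 and was at 88.8 to 94.0 in DU145 controls and 102 and 89.0 with overexpression (difference -3.94, standard error 0.282, adjusted p = 1.50e-07). Clusterin (CLU), a secreted chaperone of the complement list, rose in PC3 from 89.2 to 98.9 CPM to 194 to 198 and was at 446 to 487 in DU145 controls and 482 and 524 with overexpression. The calcium-binding S100A2 rose in PC3 (1.58) against 0.30 in DU145, and F2R, the thrombin receptor (0.74 and -0.07), and the transporter SLC22A23 (0.83 and 0.01) rose in PC3 only. HOXB9, of the HOX cluster on chromosome 17, fell in PC3 from 77.0, 78.2 and 82.8 CPM to 26.9, 27.1 and 25.7, and was at 23.7 to 25.1 in DU145 controls and 21.7 and 21.5 with overexpression. CCBE1, a matrix protein of lymphatic growth (-1.21 and 0.08), and BIRC3, an NF-κB target and inhibitor of apoptosis (from 25.6 to 31.2 CPM down to 13.4 to 14.3 in PC3, and 0.09 in DU145), also fell in PC3 only.

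Of the chemokines and cytokines, 10 fell and 1 rose of 19 tested in PC3, where 1.76% and 3.61% of all genes did, while 4 rose and 4 fell of 16 tested in DU145, where 4.33% and 4.61% did. CXCL2 and CXCL5 fell in both lines and IL24 was called in opposite directions. CXCL8, the neutrophil attractant interleukin 8, was read at 119.6, 120.6 and 113 CPM in PC3 controls and at 45.9, 49.8 and 47.5 with overexpression. In DU145 it lay at 1.14 to 1.98 CPM and at 2.77 and 2.40, above its controls but not called (adjusted p = 0.0687). CSF1, which drives macrophages and osteoclasts, showed -0.52 in PC3 and 1.53 in DU145 (difference 2.05, standard error 0.165, adjusted p = 1.29e-07). IL24 (-1.13 and 1.79, at levels of 2.28 CPM and below) and CXCL2 were named after their values were seen. CXCL5 fell in both, from 26, 26 and 23 counts in DU145 controls to 0 and 2, at least 9.40-fold lower, and by a log2 fold change of -1.51 in PC3.

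Most cell cycle genes were lower with overexpression in both lines, by small amounts. Of 35 genes of the cell cycle and mitosis, 34 were lower with overexpression in PC3, 31 in DU145 and 31 in both, against 26.8% of all genes tested in both lines that were lower in both. The median log2 fold change was -0.24 in PC3 and -0.23 in DU145. At an adjusted p under 0.05 with no threshold on the fold, 31 members were lower and 1 higher in PC3, and 14 were lower and none of the 35 higher in DU145, where 19% of the 12413 genes were lower in PC3 and 8.5% in DU145. No member reached the fold threshold in either line. The interval of the difference lay within ±0.58 for all 35, a margin wider than the effects themselves, so that it does not show equal effects. Cyclin B1 (CCNB1), which drives entry into mitosis, was read at 153, 148 and 152 CPM in PC3 controls and 124, 123 and 120 with overexpression. In DU145 it was read at 249, 277 and 268 CPM in controls and 219 and 215 with overexpression, so that the groups were apart by a similar factor in both lines (difference 0.02, interval -0.13 to 0.16). The mitotic kinase PLK1 (-0.26 and -0.42) and CDC20, an activator of the anaphase-promoting complex (-0.37 and -0.34, with a difference of 0.24 at an adjusted p of 0.00574 once the trend was removed), were lower in both, all 3 named after their values were seen. TOP2A, which untangles replicated DNA, showed -0.30 in PC3 and 0.08 in DU145 and was, with the kinetochore gene NDC80, 1 of 2 members with a called difference. The call of NDC80 (difference 0.28) held in 8 of 20 other settings. With the trend removed, 10 members had one, 4 higher and 6 lower in DU145, at a median of -0.25 in PC3 and -0.28 in DU145, where 26.5% of all genes had one, and without replicate 3 there were 5.

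DNA replication genes were lower in PC3, while in DU145 the share that passed the test was near that of all genes. Of 34 genes, 33 were lower in PC3 at an adjusted p under 0.05 (97.1%, against 19% of all genes) and 3 in DU145 (8.82%, against 8.5%), although 31 were lower by sign in both, with medians of -0.20 and -0.12. The difference was called for 3 genes, for 14 without replicate 3 (7 higher and 7 lower) and for 6 with the trend removed. MCM4, a subunit of the replicative helicase named after its values were seen, showed -0.20 in both lines, with a DU145 adjusted p of 0.0895. TYMS, thymidylate synthase (-0.30 in PC3 and 0.07 in DU145), was among the 3 first called. The 48 ribosomal protein genes, of which 2 had a lower effect in DU145 and none of the 48 a higher one (4.17%, against 19.7% of all genes), had medians of -0.02 and -0.05. For these, DU145 overexpression replicate 2 alone gave 6 higher and 15 lower, and the fit with the trend removed 6 and 5, and RPS2 was read at 531 CPM in that library and 688 in replicate 3, against 870.4 to 934 in DU145 controls. The 35 nuclear genes of respiratory complex I gave 1 higher and 5 lower (17.1% together, against 19.7% of all genes), and 6 and 12 without replicate 3.

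Some complement genes and single regulators were called the same way in both lines. Of the complement genes, 4 of 10 tested were called up in PC3 and 5 of 13 in DU145, where 3.61% and 4.33% of all genes were. Of these, 3 were called up in both lines, where 0.612% of all genes were called the same way. None of the list was called down in either line. C1S and C1R, the proteases that start the classical pathway, rose in both, C1R from 13.4 to 14.99 CPM to 26.1 to 28.4 in PC3 and from 9.64 to 11.3 CPM to 18.6 and 14.9 in DU145. CD55, a membrane inhibitor, had the same log2 fold change of 0.50 in both. These 3 were named after their values were seen. Of the 76 genes called in the same direction, 51 rose and 25 fell, and 19 still had a called difference, 16 of them larger in DU145. GBP2, an interferon-induced GTPase, rose in PC3 from 1.24 to 2.34 CPM to 5.46 to 6.87 and in DU145 from 8.44 to 10.4 CPM to 26.6 and 23.9 (difference -0.36, interval -0.85 to 0.13). SLC1A1, a glutamate transporter (1.46 and 1.24), rose in both, and PLLP, a myelin and membrane protein (-0.95 and -1.11), fell in both. For 13 of the 76 the interval lay within ±0.58. Among these, BCL6, a transcriptional repressor (0.64 and 0.68, interval -0.16 to 0.23), SOCS2, a feedback inhibitor of cytokine receptors (-1.02 and -0.77, interval 0.03 to 0.47), the mucin MUC1 (0.73 and 0.61) and desmocollin 3 (DSC3, 0.59 and 0.62) were chosen after their values were seen.

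More interferon-stimulated genes rose than fell in each line. Of 47 tested in PC3, 15 rose and none of the 47 fell, where 3.61% and 1.76% of all genes did. Of 40 tested in DU145, 12 rose and 2 fell, where 4.33% and 4.61% did. Of the 15, 8 had too few counts in DU145 to be tested there, and 3 of the other 7 also rose in DU145. Over the 38 tested in both lines, 25 were higher in both (65.8%, against 26% of all genes), with medians of 0.34 and 0.29. The difference was called for 15 of 50 genes (30%, against 19.7% of all genes), 7 higher and 8 lower in DU145 (9 and 10 with the trend removed). OAS3, which makes the messenger that activates RNase L, was read at 27.5, 29.3 and 30.9 CPM in PC3 controls and 37.4, 35.2 and 37.1 with overexpression. In DU145 it was read at 49.2, 43.9 and 47.3 CPM in controls and at 19.3 and 25.6 with overexpression, the reverse order. MX1, an antiviral GTPase, showed the same pattern (0.49 and -0.90). SAMD9, a restriction factor named after its values were seen, was at 18.5 to 22.4 CPM in all 6 PC3 libraries and rose in DU145 from 0.661, 0.571 and 0.823 CPM to 11.8 and 10.49, and IFIT2, also named afterwards, rose there too (0.16 and 1.47). NLRC5, the activator of MHC class I genes, rose in PC3 (2.03 against 0.21 in DU145).

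The promoters of OAS3 and SAMD9 are shown because these genes differed in opposite directions while both hold the interferon-stimulated response element. The 250 bases before each start (GRCh38.p14, RefSeq) are printed 5′ to 3′ with matches to GAAA, any 2 bases and GAAA again, searched on both strands, in capitals. OAS3 lies on the plus strand at chr12:112938224-112938473 and SAMD9 on the minus strand at chr7:93117980-93118229.
OAS3: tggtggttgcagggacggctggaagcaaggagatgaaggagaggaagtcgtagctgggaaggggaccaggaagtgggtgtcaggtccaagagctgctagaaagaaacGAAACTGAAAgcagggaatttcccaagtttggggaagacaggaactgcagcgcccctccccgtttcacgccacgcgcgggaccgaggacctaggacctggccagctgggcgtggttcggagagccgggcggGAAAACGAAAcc
SAMD9: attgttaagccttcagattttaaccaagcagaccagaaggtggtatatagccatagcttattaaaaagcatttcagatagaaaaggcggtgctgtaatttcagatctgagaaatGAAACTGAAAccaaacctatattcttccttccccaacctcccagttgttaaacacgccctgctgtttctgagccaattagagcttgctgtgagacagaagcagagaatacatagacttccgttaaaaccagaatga
OAS3 held 2 matches and SAMD9 1. In windows from 250 bases before to 50 after the start, 25 of 39 list members with a RefSeq promoter held the element (64.1%), against 313 of 11676 tested genes (2.68%). It was present in 8 of the 12 with a called difference and in 17 of the 27 without, so this motif did not separate them.

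Glycosylation genes, the pathway of the enzyme itself, had no common direction in the difference between the lines. Within the lines, 2 of 12 sialyltransferases tested in PC3 and 5 of 14 in DU145 were called up, ST6GAL1 among them in both. Of all genes, 3.61% and 4.33% were called up, and no sialyltransferase was called down. In DU145, 3 N-glycan genes rose and 0 fell, 1 rose and 0 fell of sialic acid metabolism, and 3 O-GalNAc genes rose and 3 fell. Of 15 sialyltransferases tested, ST6GAL1 and ST3GAL1, which caps O-glycans, had a higher effect in DU145, and ST6GALNAC2 (log2 fold change 1.00 in PC3 and -0.49 in DU145) and ST6GALNAC6 (0.20 and -0.13) a lower one. The last pair was named after its values were seen. Over all genes the difference was called higher for 10.4% and lower for 9.36%. It was higher for 5 and lower for 4 of 28 N-glycan genes, for 3 and 3 of 24 O-GalNAc genes, and for 2 and none of 15 genes of sialic acid metabolism. Without replicate 3 these were 6 and 10, 5 and 2, and 5 and none, and for the sialyltransferases 4 and 5, and with the trend removed 7 and 5, 5 and 6, 2 and none, and 3 and 1. ST3GAL1 was at 352 to 367 CPM in PC3 controls and 405 to 435 with overexpression, and rose in DU145 from 5.31 to 7.995 CPM to 15.6 and 14.9. The N-glycan mannosidase MAN1A1 (0.06 and 1.10), the galactosyltransferase B4GALT5 (-0.06 and 0.60) and the O-glycan initiating enzymes GALNT10 (-0.01 and 0.74) and GALNT6 (-0.07 and 0.84) rose in DU145 against small effects in PC3. GFPT2, the entry enzyme of the hexosamine pathway that feeds sialic acid synthesis, rose in DU145 (0.61 against -0.14). LGALS1, a lectin that binds galactose ends of glycans, fell in DU145 (by 0.78 against -0.01 in PC3), from 275 to 299 CPM to 147 and 186.

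The level of a gene in the control cells was examined next. Of the 2949 genes with a called difference, 90.2% were at 1 CPM or more in the controls of both lines. That class held 11722 of the 14952 genes tested, so a large share was to be expected from its size. Such genes were called in 22.7% of 11722 cases, against 11.4% of 1131 genes at that level in DU145 only, 9.58% of 1117 in PC3 only and 5.4% of 982 in neither. Of the DU145-only genes with a called difference, 16 were higher and 113 lower in DU145, and of the PC3-only genes 62 were higher and 45 lower. These classes come from control libraries that also enter the effects, and a gene scarce in a line's controls can hardly be seen to fall there. The direction in these classes is therefore not read as a result. With 5 CPM in place of 1 the share held by genes expressed in both was 78.3% (a class of 9904 genes), and with 0.5 CPM 93.9% (12470 genes). Of the 1222 genes called in DU145, 787 were at 1 CPM or more in both controls and 302 in DU145 controls only, and of the 728 called in PC3, 338 and 239 (PC3 only) were.

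A gene that a line does not express cannot be seen to fall there. Among genes at 10 CPM or more in at least 1 group, 30 were called in DU145 with every PC3 library at or under 3 counts, 11 of them up, and 52 were called in PC3 with every DU145 library at or under 3 counts, 38 of them up. The pituitary hormone gene GH1, which has near-identical paralogues, had counts of 0, 2 and 1 in DU145 controls and 158 and 246 with overexpression, and at most 1 in any PC3 library. REG4, a secreted lectin of gut epithelium, had 47, 40 and 38 counts in PC3 controls and 331, 331 and 319 with overexpression, and at most 2 in DU145. SPARC, a matrix protein, rose in PC3 from 122 to 175 counts to 599 to 906 with at most 1 in DU145, and the cystatin CST1 from 80 to 102 counts to 505 to 655, also with at most 1. The photoreceptor cadherin CDHR1 fell in DU145 from 279 to 332 counts to 51 and 60, and FXYD6, a regulator of the sodium pump, from 203 to 317 counts to 30 and 48, with at most 1 in PC3. A response in the other line was not detectable at this depth.

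Because a level and an effect from the same control library share its error, the level was then taken from 1 control library per line and the effects were fitted without it, for replicates 1, 2 and 3 in turn. The share of genes with a called difference ranged from 11.7% to 17.1% over 5 bins of the level in DU145 against PC3. It was 12.1% to 14.1% where the levels were within a log2 difference of 1. In each turn it was lower where PC3 was higher by 1 to 2 (11.7% to 13%). In each turn it was higher where PC3 was higher by over 2 and where DU145 was higher by 1 to 2 or by over 2 (14% to 17.1%). Across about the same genes each time (11661, 11727 and 11711 at 1 CPM or more), the level difference and the difference in effect had Spearman correlations of 0.099, 0.105 and 0.051, and the level accounted for between 0.0288% and 0.293% of the variance. The bins, unlike the correlations, held all genes tested, also those under 1 CPM in a line. Of the called genes that DU145 expressed more strongly by over 2 on the log2 scale, 37.5% to 38.7% were higher in DU145. The share was 56.3% to 60% where the levels were within 1. In the bin over 2, 194 to 217 genes fell and 90 to 115 rose in DU145. A gene scarce in PC3 can hardly be seen to fall there, so the direction in this bin is not read as a result. As a share of variance, the control level accounted for little of the difference between the lines among genes that both express.

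**Figure D3:**
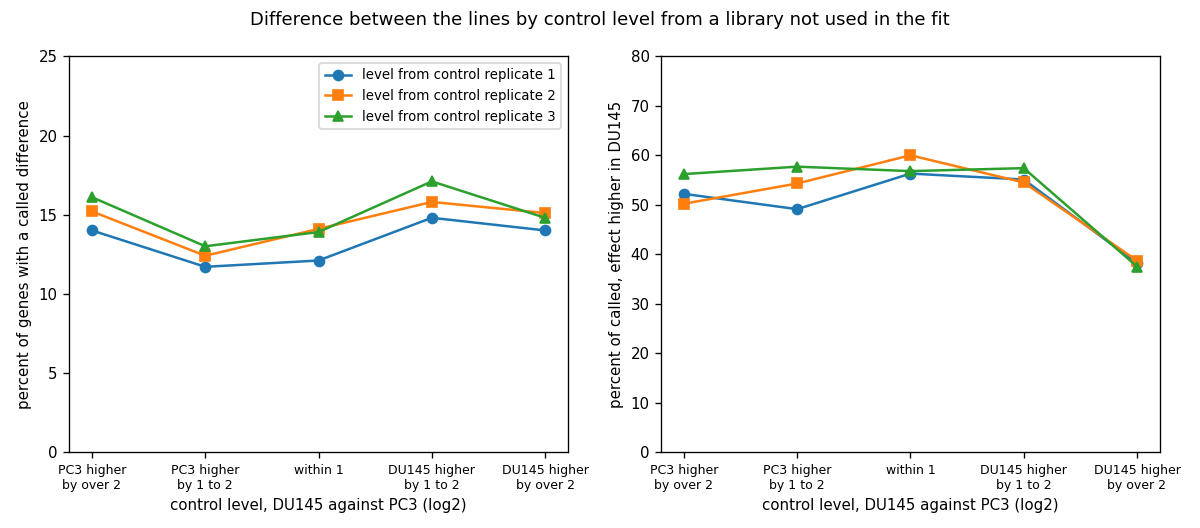
The percent of genes with a called difference (left) and the percent of those called with a higher effect in DU145 (right) in 5 bins of the control level in DU145 against PC3, on the log2 scale, each line a turn with the level from a control replicate left out of the fit. The left panel lies between 11.7% and 17.1%, and the right falls to between 37.5% and 38.7% in the bin where DU145 is higher by over 2.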

How the data were processed

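The deposited files hold counts of reads per gene, made by the authors from single-end reads of stranded poly(A) libraries with HISAT2 on hg38 and featureCounts in Galaxy. Whether counting used strand, and which annotation, is not given in the sources used here. The 2 tables (28395 genes, 97.7% with a RefSeq symbol) were joined by gene identifier. DU145 overexpression replicate 1 is not analysed here.

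The difference was tested on all 11 libraries with edgeR 4.0.16's quasi-likelihood test (R 4.3.3, TMM, filterByExpr, Benjamini-Hochberg), and each line's effect on its own libraries. The test of the difference estimated 1 spread per gene over both lines, although DU145 repeats varied more than PC3 repeats. Its standard errors can therefore fall below that of a single line, as for COL4A1 (0.0871 against 0.1015 in DU145). Its p-values and intervals can look more certain than the DU145 libraries allow. Alternatives used limma 3.58.1 and DESeq2 1.42.0. Intervals are 95% intervals. On simulated data, 84% of 100 differences of 1 and 95% of 100 of 2 (log2) were recovered, with 10 false calls among 14797 genes. The simulation gave all genes of a line the same spread and held no gap between libraries that follows GC content. It therefore does not measure the errors that such a gap can cause in these data.

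Genes were named by rules of fold change and significance (those with the largest changes in each class and, in each list, those with the smallest p for the difference), and others are said to be chosen after their values were seen. The members and lists were chosen with earlier results of these data known. Promoters are RefSeq sequence. A gene set to check the line labels, and 1 other, are not reported here.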

Additional observations from a re-analysis of the deposited data

Results flagged for a closer look

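For the genes below, the effect of ST6GAL1 overexpression differed between the lines in edgeR's quasi-likelihood test of the difference, given as the log2 effect in DU145 minus that in PC3. The effect was higher in DU145 by over 1.5 for SAMD9 (4.02), TGFBI (3.48), MIR503HG (2.95), IL24 (2.92), ITGB8 (2.74), AKR1C3 (2.72), NPR3 (2.58), TNC (2.33), COL4A2 (2.11), SNTB1 (2.07), CSF1 (2.05), CXCL8 (2.04), ADAM12 (1.97), COL4A1 (1.86), AMIGO2 (1.70), ANKRD1 (1.63), THBS1 (1.58) and TNFAIP3 (1.58). It was higher by 1 to 1.5 for HOXB9 (1.41), TGFB2 (1.38), ITGB3 (1.37), CLDN4 (1.32), IFIT2 (1.29), CCBE1 (1.28), NUPR1 (1.20), SLC7A11 (1.17), CDKN1A (1.14), GADD45A (1.12), BIRC3 (1.08), CD44 (1.06), ST6GAL1 (1.06), MAN1A1 (1.03) and SKIL (1.02). A smaller difference in this direction was measured for ST3GAL1 (0.98), SERPINE2 (0.97), GALNT6 (0.91), EPAS1 (0.90), ASNS (0.84), PGD (0.79), GFPT2 (0.76), GALNT10 (0.74), TRIB3 (0.72), HIF1A (0.69), B4GALT5 (0.66), PSAT1 (0.63), IL6ST (0.55), ATF4 (0.38), TOP2A (0.38), TYMS (0.36) and NDC80 (0.28). The effect was lower in DU145, beyond -1.5, for ST14 (-5.05), DSP (-4.96), ANGPTL4 (-4.26), CYP1B1 (-3.94), ESRP1 (-3.30), MUC3A (-3.07), RNF43 (-2.77), FOS (-2.70), CSGALNACT1 (-2.54), BMP4 (-2.36), CLDN7 (-2.15), SVIP (-1.98), KRT15 (-1.97), CDH3 (-1.84), NLRC5 (-1.83) and PTK7 (-1.55). Differences of -1.5 to 0 were measured for NOTCH3 (-1.46), MX1 (-1.39), OAS3 (-1.38), S100A2 (-1.28), AREG (-1.28), ETV4 (-1.16), CDH1 (-1.12), CLU (-0.97), TM7SF2 (-0.96), ETV5 (-0.85), SLC22A23 (-0.82), F2R (-0.81), LGALS1 (-0.78) and RPS2 (-0.57). Of genes with a group at the floor of 3 counts, GH1 (9.16), REG4 (-7.18) and CXCL5 (-3.14) had fitted differences that depend on the prior count and are no measure of size, and the GH1 difference was called in 10 of 18 settings. No group of 4 or more libraries existed in which a single library could be tested as standing apart.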

How the results depend on the processing

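The difference was called for 2949 genes, and for 2479 to 3842 under other tests, scalings and filters, including the removal of a GC and length trend, which was chosen after the data were seen. Leaving out 1 library gave 2283 to 5218 for the difference and 832 to 2058 for DU145, the highest of each without DU145 overexpression replicate 3. A minimum of 10 counts in every library left 28 genes called in opposite directions. A fold threshold of 0.58 on the difference gave 1304, and no fold threshold within lines gave 5056 genes in PC3, 2747 in DU145, 654 in the same and 320 in opposite directions. Of the values of single genes, 2661 kept the call or its absence, 17 gained and 68 lost the call, and the cause was not tested. Genes with a called difference kept its direction. Genes without one could change sign and still count as kept, as SPARC did (-1.66 to 0.85 over 18 settings). With a replicate block 3551 genes were called for the difference, 740 in PC3 and 1517 in DU145. The replicate numbers were not shown to pair the samples: deviations of same-numbered libraries correlated at 0.045, 0.075 and 0.074 in PC3 and at 0.177 and 0.479 in DU145, where overexpression replicate 2 correlated at 0.402 with control 1. With 2 DU145 overexpression libraries that differ with GC content, small effects in DU145 are the least certain.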

Other observations

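The MHC class I list had 4 of 11 genes with a lower effect in DU145 and none of the 11 with a higher one, where 9.36% and 10.4% of all genes did. With the GC and length trend removed 4 were again lower, where 12.3% of all genes were. Of the HOX genes, 6 fell and 1 rose of 26 tested in PC3, where 1.76% and 3.61% of all genes did. In DU145, 2 fell of 25 tested, where 4.61% of all genes did. Of the 19 tested in both lines, 15 were lower in both (78.9%, against 26.8% of all genes).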
